A study of Mus musculus with 24 samples.

Results

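The collagen genes of the mouse were taken as the protein-coding genes whose symbol is Col, a type number, the letter a and a chain number, with at least 240 reads summed over all 24 libraries. Of 44 such genes 41 met the minimum, out of 55385 genes counted and 14045 protein-coding genes with as many reads. Col6a4 (117 reads), Col9a2 (198 reads) and Col9a3 (218 reads) fell short of it, and the members nearest to the limit were Col25a1 (353 reads) and Col2a1 (397 reads). The 41 members comprised 11 chains of fibrillar collagens, 6 chains of type IV, the collagen of basement membranes, and 24 chains of other types. RNA was sequenced from the gastrocnemius, a muscle of the calf, of female C57BL/6J mice in 6 groups of 4 libraries. Young mice were 3 to 6 months old, old mice 21 to 24 months and oldest-old mice 27 to 29 months. Young GFP, old GFP and oldest-old GFP mice received an AAV8 vector that carries green fluorescent protein, and AAV-Kl mice of the old and oldest-old ages the same kind of vector with the anti-ageing protein Klotho. Both vectors use the liver-specific LP-1 promoter and were given by the tail vein at 300000000 vector genomes per mouse, with the muscle taken 14 days later, so that muscle was not itself the tissue meant to make the protein. The GFP mice are thus vector-treated controls, and a group named young sham by the labels carries no further description in the study's methods. The study kept for analysis mice with middling hang test scores, which limits how much of the range of function each age group holds.

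Collagens are triple helices of 3 chains that are hydroxylated, folded and secreted by fibroblasts and other stromal cells. Fibrillar types I and III, with types V and XI inside the fibril, form the tension-bearing fibres of the endomysium, perimysium and tendon. Type IV forms the sheet of the basement membrane around each myofibre and capillary, type VI links that sheet to the fibres, and fibril-associated types such as XII, XIV and XXII decorate fibrils or the junction of muscle and tendon. Collagen transcripts turn over far faster than the collagen protein already laid down in the matrix, so transcript levels need not follow the amount of collagen in a muscle.

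The libraries held 36415886 to 59733985 reads on genes, of which collagen genes took from 0.0443% to 0.239%. Levels are given as CPM, counts per a fixed total of reads on genes after TMM scaling of the library totals. The spread of a level, share or ratio is an SD over the 4 libraries of a group unless another n is given. After a log2 fold change, ± gives an SE, derived from the fold change and the F statistic of edgeR's test. Transcripts of the contractile apparatus were abundant in every library, with a summed level of 10 myofibre markers between 129472 and 191829 CPM. Oldest-old GFP 4 and oldest-old AAV-Kl 3 were low in collagens as a whole, at 405 and 486 CPM summed over the 41 genes, and young sham 2 was high at 2294 CPM. Young GFP 1 and young GFP 3 held keratinocyte markers, with summed levels of 146 and 428 CPM over 10 genes against 26.7 to 36.7 CPM in the old and oldest-old GFP libraries. Young GFP 4 stood at 55.7 CPM and young GFP 2 at 14.1 CPM. Summed hepatocyte markers (10 genes) were high in old GFP 1 (938 CPM), old AAV-Kl 4 (155 CPM) and old GFP 4 (103 CPM), against at most 37.4 CPM in any other library. In bulk tissue, fewer cells of a type and less RNA per cell cannot be told apart.

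The 41 genes together reached 1248 ± 178 CPM in young GFP, 879 ± 132 CPM in old GFP and 697 ± 198 CPM in oldest-old GFP muscle. Fibrillar chains made up 51.8% ± 3.5 of the collagen level in young GFP, 42.7% ± 1.9 in old GFP and 35.6% ± 7.1 in oldest-old GFP libraries. The lowest young GFP library stood at 48.5% and the highest old GFP library at 45.1%, so these groups did not overlap. Oldest-old GFP libraries ran from 25.1% to 40.2%, just below the lowest old GFP library at 40.5%. Type IV chains took 22.9% ± 2.3, 24.5% ± 2.1 and 30.8% ± 7.3 of the collagen level in the same order. These shares are descriptions of sums over the members and were not tested.

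**Figure D1:**
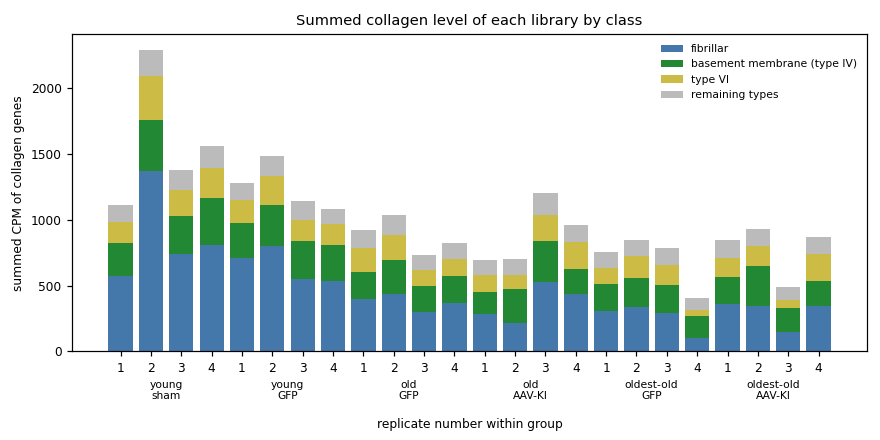
Bars stack the summed CPM of fibrillar, basement membrane (type IV), type VI and remaining collagen genes in each of the 24 libraries, with the replicate number and group under each bar. The fibrillar portion is 534 to 797 CPM in young GFP, 296 to 439 CPM in old GFP and 102 to 339 CPM in oldest-old GFP libraries, and young sham 2 is the tallest bar.

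Per kilobase of the principal transcript, the most abundant chains in young GFP muscle were Col1a2 (35.3 ± 9.2 CPM per kb), Col1a1 (34.1 ± 8.9), Col3a1 (25.8 ± 4.5) and Col4a1 (24.2 ± 1.8), in that order, and neighbours in this order differed by less than their spread. By mean, the order in oldest-old GFP libraries was Col4a1 (16.7 ± 2.5 CPM per kb) and Col4a2 (13.6 ± 1.1), followed by Col1a2 (11.9 ± 5.4), Col3a1 (11 ± 5.6), Col6a2 (10.7 ± 5.1), Col6a1 (10.7 ± 4.4) and Col1a1 (9.95 ± 4.8). Col1a1 thus ranked 2 of 41 per kilobase in young GFP and 7 of 41 in oldest-old GFP muscle, and Col4a1 ranked 4 and 1. Below Col4a1 the neighbours in the oldest-old order differed by less than their spread, and oldest-old GFP 4 was the lowest library for each of these 7 chains. Without that library, a choice made after seeing the data, Col4a1 (17.9 ± 0.42 CPM per kb, n = 3) and Col1a1 (12.3 ± 1.1) kept ranks 1 and 7, and Col1a2 (14.5 ± 1.6) stood above Col4a2 (14.1 ± 0.52). At the other end, Col10a1, Col6a5, Col4a6, Col25a1 and Col2a1 had less than 0.1 CPM per kb in young GFP libraries.

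The age comparison asked which collagens differed between young, old and oldest-old muscle under the same control vector. In oldest-old GFP against young GFP muscle 6 of 41 collagens were lower and 1 was higher at an adjusted p under 0.05 (edgeR's quasi-likelihood test with Benjamini-Hochberg adjustment over 17465 genes). Of all genes tested, 5.31% were lower and 7.64% higher at that threshold. At an unadjusted p under 0.05 there were 12 lower and 4 higher collagens, beside 12.3% and 16.3% of all genes. The median log2 fold change of the 41 collagens was -0.35, that of the 11 fibrillar chains -0.66, that of the 6 type IV chains -0.10 and that of all genes 0.03. Without oldest-old GFP 4 there were 3 calls (Col1a1, Col1a2 and Col11a1), beside 1603 of 17863 genes called, and the median of the 41 was -0.16. The 6 that fell were Col1a1, Col1a2, Col5a1, Col5a3 and Col11a1, all fibrillar, and Col17a1, a transmembrane collagen of epithelia. Col7a1, the anchoring fibril chain, rose.

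In old GFP against young GFP muscle 1 of 41 collagens, Col11a1, was lower and 0 were higher at an adjusted p under 0.05 by edgeR, beside 1.08% and 2.43% of all genes. Unadjusted, 8 were lower and 3 higher, beside 7.52% and 10.3%. The median log2 fold change was -0.17 over the 41 collagens, -0.39 over the fibrillar chains and 0.003 over all genes. With 1 library left out the median of the 41 ran from -0.30 (without old GFP 2) to -0.11 (without old GFP 4), and it was -0.26 without young GFP 4. The same young GFP libraries serve as reference in both, so their values are set side by side and are not 2 independent observations. Old GFP and oldest-old GFP libraries did not differ in any collagen after adjustment with edgeR (0 of 41, with 0% of all genes called in either direction), nor at an unadjusted p under 0.05 (0 of 41, beside 5.94% of all genes higher and 4.71% lower), and DESeq2 also called 0. The unadjusted count was 1 without old GFP 2, 1 without old GFP 3 and 3 without oldest-old GFP 2. By direction alone, 29 collagens were lower and 12 higher in oldest-old than in old GFP muscle. The median log2 fold change was -0.13 over the 41 collagens, -0.32 over the fibrillar, -0.05 over the type IV and -0.39 over the type VI chains. It was 0.02 over all genes. Without oldest-old GFP 4 the median of the 41 was -0.10, and these medians were not tested.

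Type I collagen, the main fibre of muscle connective tissue and tendon, is made of Col1a1 and Col1a2 chains. Col1a1 stood at 249, 246, 155 and 159 CPM in young GFP, at 93.1, 113, 66.2 and 93.4 CPM in old GFP and at 74.4, 78.4, 66.2 and 17 CPM in oldest-old GFP libraries. Col1a2 stood at 221, 240, 148 and 145 CPM, at 98.0, 115, 68.8 and 95.4 CPM, and at 70.2, 86.6, 75.8 and 21.8 CPM in the same groups. Every young GFP library lay above every old and oldest-old GFP library for both chains, and oldest-old GFP 4 was far below the rest of its group. In oldest-old against young GFP muscle the log2 fold change was -1.77 ± 0.41 (SE) for Col1a1 (adjusted p = 0.0100), a 3.41-fold lower level, and -1.56 ± 0.39 for Col1a2 (edgeR, adjusted p = 0.0140). In old against young GFP muscle the values were -1.14 ± 0.40 for Col1a1 (adjusted p = 0.127) and -1.0 ± 0.38 for Col1a2 (adjusted p = 0.162), which missed the threshold. In that contrast Col1a1 and Col1a2 passed with only its groups in the fit (edgeR, adjusted p = 0.0117 and 0.0179) and with the tenocyte score as a covariate (0.0403 and 0.0381). Without oldest-old GFP 4 the log2 fold change of Col1a1 in oldest-old muscle was -1.48 (edgeR, adjusted p = 0.0152), and without young GFP 1 and 3 it was -1.79 (adjusted p = 0.0561).

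Col3a1, the single chain of type III collagen that co-assembles with type I in compliant tissue, stood at 134, 180, 138 and 123 CPM in young GFP libraries. The old GFP libraries held 109, 112, 74.6 and 92.0 CPM, and the oldest-old GFP libraries 82.9, 82.8, 63.0 and 17 CPM. Young GFP libraries lay above both older groups without overlap, yet Col3a1 did not pass the threshold in oldest-old muscle (log2 fold change -1.22 ± 0.42, adjusted p = 0.0655) nor in old muscle (-0.57 ± 0.42, adjusted p = 0.524, edgeR). It passed with DESeq2 in oldest-old muscle (adjusted p = 0.0358) and with only the groups of the contrast in old muscle (edgeR, adjusted p = 0.0452).

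Type V chains nucleate type I fibrils and set their width. Col5a1 measured 32.3, 37.9, 33.8 and 36.5 CPM in young GFP, 27.2, 30.7, 23.9 and 25.1 CPM in old GFP and 22.4, 23.6, 21.4 and 12 CPM in oldest-old GFP libraries. Col5a2 measured 20.9, 27.8, 21.9 and 19.3 CPM, then 19.1, 22.1, 15.8 and 17.7 CPM, then 16.4, 18.5, 16.8 and 10.7 CPM. Oldest-old GFP libraries lay below all young GFP libraries for both genes. The log2 fold change in oldest-old GFP muscle was -0.81 ± 0.22 for Col5a1 (adjusted p = 0.0227) and -0.66 ± 0.21 for Col5a3 (adjusted p = 0.0496), whereas Col5a2 missed the threshold at -0.52 ± 0.21 (adjusted p = 0.110, edgeR). Col5a3 fell from 37.5 ± 3.3 CPM in young GFP to 23.6 ± 7.1 CPM in oldest-old GFP libraries. Without oldest-old GFP 4 neither Col5a1 (adjusted p = 0.0602) nor Col5a3 (adjusted p = 0.129) passed. Col5a1 also missed the threshold without young GFP 4 (adjusted p = 0.0502). Among the 8 fits that left out 1 library, Col5a3 passed only without oldest-old GFP 2 or 3 (edgeR, adjusted p from 0.0209 to 0.129). Over 10 other alternatives Col5a3 kept the call in 2 and lost it in 8 (edgeR or DESeq2, adjusted p from 0.0150 to 0.247).

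Col11a1, a minor chain that joins fibrils in cartilage and tendon, was the collagen called in both older groups. It stood at 3.04, 3.83, 2.51 and 2.52 CPM in young GFP, at 1.07, 1.48, 0.647 and 1.46 CPM in old GFP and at 0.978, 0.944, 1.15 and 0.673 CPM in oldest-old GFP libraries. The lowest young GFP library was thus above the highest library of either older group. The log2 fold change was -1.34 ± 0.25 in old GFP (adjusted p = 0.0060) and -1.65 ± 0.25 in oldest-old GFP muscle (edgeR, adjusted p = 0.0006). It passed the threshold under every alternative run for these contrasts, with adjusted p from 0.0092 to 0.0238 in old and from 0.0014 to 0.00278 in oldest-old muscle over the fits that left out 1 library each (edgeR). The remaining fibrillar members, Col2a1, Col11a2, Col24a1 and Col27a1, had log2 fold changes from -0.64 to 0.21 in oldest-old GFP muscle, and 0 of 4 passed the threshold.

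**Figure D2:**
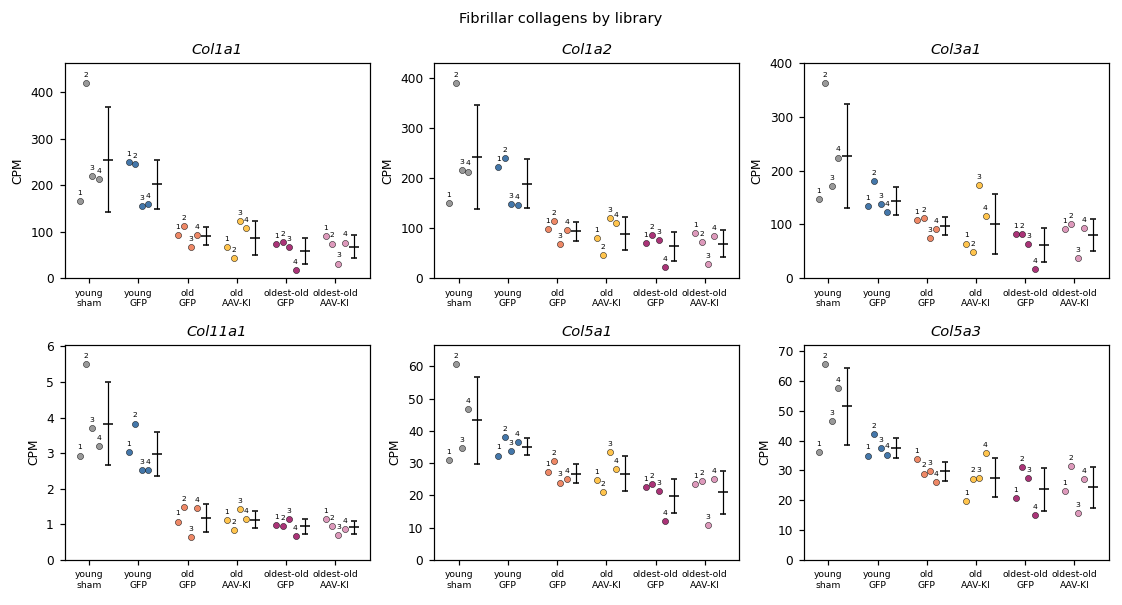
Each point is the CPM of a library, numbered by replicate, for 6 fibrillar collagens in the 6 groups, with the group mean and SD (n = 4) as a bar beside the points and the vertical axis starting at 0. Young GFP points of Col1a1 lie at 155 to 249 CPM and oldest-old GFP points at 17 to 78.4 CPM, and oldest-old GFP 4 is the lowest of its group in all 6 panels and young sham 2 the highest library of all.

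The tenocyte list (9 genes, all detected) had summed levels of 173 to 332 CPM in young GFP, 139 to 305 CPM in old GFP and 97.8 to 223 CPM in oldest-old GFP libraries, with oldest-old GFP 4 lowest of its group. In oldest-old against young GFP muscle 1 of 9 of these genes was lower at an adjusted p under 0.05. This was Cilp2, with a log2 fold change of -2.12 ± 0.44 (edgeR, adjusted p = 0.005), while Scx, a tendon transcription factor, stood at 0.60 ± 0.21 (adjusted p = 0.068). Among the markers of fibro-adipogenic progenitors, the stromal cells that make much of the collagen of muscle, 0 of 10 changed in that comparison, with summed levels of 930 to 1631 CPM in young GFP and 770 to 1280 CPM in oldest-old GFP libraries. With the mean log2 level of the tenocyte markers as a covariate, the log2 fold change in oldest-old GFP muscle was -1.20 for Col1a1 (adjusted p = 0.00341), -0.98 for Col1a2 (adjusted p = 0.00337) and -1.34 for Col11a1 (edgeR, adjusted p = 0.0011). Col5a1 also passed in that fit (adjusted p = 0.0445), whereas Col5a3 (adjusted p = 0.146) and Col7a1 (adjusted p = 0.0708) no longer did. The median over the 41 collagens was then -0.11, against -0.35 without the covariate.

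For 33 of the 41 members RefSeq gives the sequence before the start site (build GRCm38.p6). The 150 bases before the start of 4 members called in oldest-old GFP muscle are shown to let their proximal promoters be compared, Col11a1, Col5a1 and Col5a3 having fallen and Col7a1 having risen. They lie at chr3:114030390-114030539 (plus strand), chr2:27886275-27886424 (plus strand), chr9:20815068-20815217 (minus strand) and chr9:108953436-108953585 (plus strand), in that order, and are written 5′ to 3′. Capitals mark matches on either strand to the CCAAT box (CCAAT), the GC box (GGGCGG) and a TATA element (TATAAA).
Col11a1: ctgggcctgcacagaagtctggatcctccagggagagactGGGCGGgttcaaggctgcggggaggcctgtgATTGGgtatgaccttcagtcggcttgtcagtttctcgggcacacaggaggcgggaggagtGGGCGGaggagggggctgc
Col5a1: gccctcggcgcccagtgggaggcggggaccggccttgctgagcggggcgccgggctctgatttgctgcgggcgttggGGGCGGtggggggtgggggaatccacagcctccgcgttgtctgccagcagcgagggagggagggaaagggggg
Col5a3: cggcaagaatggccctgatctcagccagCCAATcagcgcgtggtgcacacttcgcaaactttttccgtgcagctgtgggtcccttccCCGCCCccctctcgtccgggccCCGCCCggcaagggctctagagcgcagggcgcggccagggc
Col7a1: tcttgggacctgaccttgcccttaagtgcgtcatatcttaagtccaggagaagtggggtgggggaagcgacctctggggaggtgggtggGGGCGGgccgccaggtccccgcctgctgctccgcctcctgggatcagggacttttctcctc
A GC box was found in the 250 bases before the start in 20 of the 36 promoters of these 33 collagen genes, against 32.7% of 32851 promoters of all genes. The CCAAT box was found in 12 of 36, against 33.8%, and TATAAA in 5 of 36, against 12.4%. Each of the 4 sequences holds a GC box, in the member that rose as in those that fell, and CCAAT or its reverse complement ATTGG is in Col11a1 and Col5a3. Col1a2, which also fell and is not shown because its window overlaps an annotated exon, holds a CCAAT box and no GC box in its 150 bases. Col1a1, which fell too, has no promoter sequence in the reference used, and Col17a1 was left out of this display. A match describes the sequence and not its use in muscle.

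Type IV collagen of every basement membrane is built from Col4a1 and Col4a2, which lie head to head on chromosome 8. Col4a1 shares 0.295% of its exon length with Col4a2, and Col4a2 shares 0.982% with Col4a1 and Gm15419 together, where unstranded reads cannot be assigned. Col4a1 measured 151, 176, 160 and 152 CPM in young GFP, 112, 139, 108 and 108 CPM in old GFP and 118, 122, 117 and 85.8 CPM in oldest-old GFP libraries. Col4a2 measured 110, 130, 117 and 114 CPM, then 87.9, 107, 85.9 and 84.9 CPM, then 87.7, 90.3, 94.4 and 77.5 CPM. All young GFP libraries lay above all old and oldest-old GFP libraries for both chains. After adjustment the differences missed the threshold, with log2 fold changes of -0.45 ± 0.19 (adjusted p = 0.224) and -0.36 ± 0.16 (adjusted p = 0.254) in old GFP muscle. In oldest-old GFP muscle they were -0.52 ± 0.19 for Col4a1 (adjusted p = 0.0831) and -0.41 ± 0.16 for Col4a2 (edgeR, adjusted p = 0.103). These calls depended on the fit. In oldest-old muscle Col4a1 and Col4a2 passed with DESeq2 (adjusted p = 0.0344 and 0.0493) and with only the groups of the contrast (0.0227 and 0.0168), and Col4a1 also under the replicate block (0.0378). In old muscle both passed with only the groups of the contrast (edgeR, adjusted p = 0.0163 and 0.0287). The tissue-restricted chains Col4a3, Col4a4, Col4a5 and Col4a6 had mean levels between 0.422 and 2.52 CPM in young GFP muscle, with log2 fold changes in oldest-old muscle from -0.23 to 0.31, and 0 of 4 passed. Of the markers of endothelial cells and of pericytes and smooth muscle, which also make type IV chains, 4 of 10 and 2 of 10 were higher and 0 lower in oldest-old than in young GFP muscle, and their part in the type IV levels was not tested.

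Type VI collagen, the beaded filament whose mutation causes inherited muscle disease, is built from Col6a1, Col6a2 and Col6a3. Col6a1 measured 62.7, 82.7, 58.0 and 56.7 CPM in young GFP, 64.7, 69.6, 46.5 and 46.6 CPM in old GFP and 44.2, 59.2, 53.6 and 18.3 CPM in oldest-old GFP libraries. Col6a2 measured 62.2, 80.7, 59.8 and 60.9 CPM, then 65.9, 71.6, 45.4 and 48.7 CPM, then 43.6, 60.6, 51.3 and 13.8 CPM. Both chains overlapped between young and old GFP libraries, and the oldest-old GFP libraries overlapped with young ones through oldest-old GFP 2. Col6a3 measured 45.2, 58.3, 41.4 and 41.4 CPM, then 44.7, 47.5, 29.9 and 30.9 CPM, then 30.5, 40.9, 38.7 and 12.1 CPM in those groups, the oldest-old GFP libraries lying below all young ones. Log2 fold changes in oldest-old against young GFP muscle were -0.56 ± 0.33, -0.63 ± 0.38 and -0.60 ± 0.31 for the 3 chains (adjusted p = 0.282, 0.287 and 0.217, edgeR). Without oldest-old GFP 4 they were -0.32, -0.35 and -0.35, so that 1 library moved each value by over 1.5 times. The remaining type VI members, Col6a5 and Col6a6, stood at 0.05 and -0.12, and 0 of 2 passed.

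**Figure D3:**
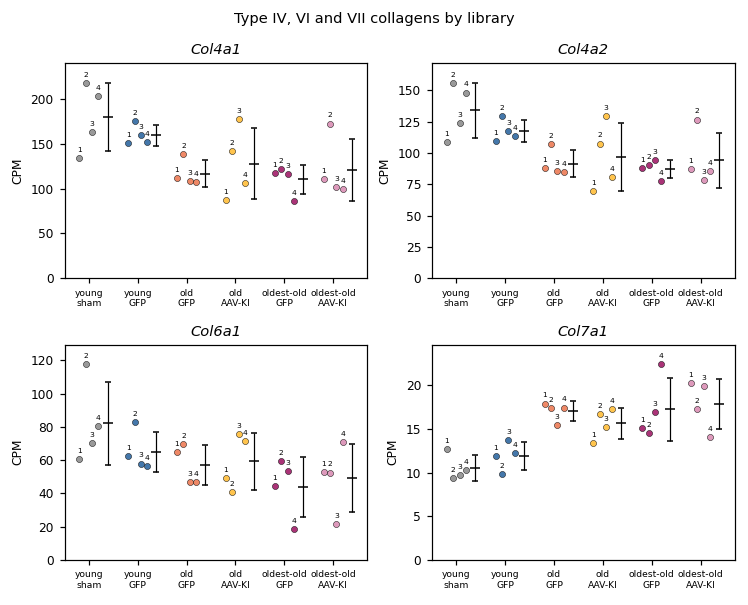
Points give the CPM of each library, numbered by replicate, for Col4a1, Col4a2, Col6a1 and Col7a1 in the 6 groups, with mean and SD (n = 4) beside them and the axis starting at 0. Young GFP libraries hold 151 to 176 CPM of Col4a1 and oldest-old GFP libraries 85.8 to 122 CPM, whereas Col7a1 is 9.82 to 13.7 CPM in young GFP and 14.5 to 22.4 CPM in oldest-old GFP libraries.

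Col7a1, best known as the anchoring fibril under epithelia, measured 11.9, 9.82, 13.7 and 12.2 CPM in young GFP, 17.9, 17.4, 15.5 and 17.4 CPM in old GFP and 15.1, 14.5, 16.9 and 22.4 CPM in oldest-old GFP libraries. All young GFP libraries lay below those of both older groups. The log2 fold change was 0.55 ± 0.14 in oldest-old (adjusted p = 0.0184) and 0.52 ± 0.14 in old GFP muscle (edgeR, adjusted p = 0.0522). Its level in young GFP 3, the library richest in keratinocyte markers, was 13.7 CPM, the highest of its group. In old muscle Col7a1 passed with all 24 libraries in the fit (adjusted p = 0.0401), with DESeq2 (0.0198), with only the groups of the contrast (0.0168) and with the tenocyte score as a covariate (0.0390). In oldest-old muscle the adjusted p was 0.0797 without oldest-old GFP 4 and 0.0661 without young GFP 2 (edgeR). Of 10 alternatives other than single left-out libraries, Col7a1 kept that call in 6 and lost it in 4. It missed the threshold with only the groups of the contrast (edgeR, adjusted p = 0.0692), without young GFP 1 and 3 (0.0668) and with the tenocyte score (0.0708).

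Col17a1, the hemidesmosomal collagen of epidermis, measured 7.12, 0.267, 21.5 and 0.293 CPM in young GFP, 0.347, 0.408, 0.281 and 0.595 CPM in old GFP and 0.332, 0.339, 0.588 and 0.290 CPM in oldest-old GFP libraries. Young GFP 1 and young GFP 3 were far above all others of these groups, and the other young GFP libraries, at 0.267 and 0.293 CPM, lay within or just below the range of the older ones. The log2 fold change of -4.24 ± 1.26 in oldest-old GFP muscle (edgeR, adjusted p = 0.0351) rests on those 2 libraries. Without them it was 0.45 (adjusted p = 0.874), and with the keratinocyte score as a covariate it was -0.47 (adjusted p = 0.38). It also missed the threshold in 6 of the 8 fits that left out 1 library each, those without oldest-old GFP 1, 2, 3 or 4 or young GFP 1 or 3 (adjusted p from 0.0606 to 0.141). Of the keratinocyte list 7 of 10 genes were lower in oldest-old than in young GFP muscle at an adjusted p under 0.05. The other libraries with Col17a1 above 1.9 CPM were young sham 4 (7.20 CPM), old AAV-Kl 2 (5.45 CPM) and oldest-old AAV-Kl 4 (1.98 CPM), whose summed keratinocyte markers of 162, 99.2 and 53.0 CPM were the highest of their groups. Young sham 2 came next, with 1.69 CPM of Col17a1 and only 19.5 CPM of those markers. Young GFP 4 held 55.7 CPM of the markers with 0.293 CPM of Col17a1.

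Col15a1 and Col18a1, the multiplexins that bridge basement membranes to the matrix and release antiangiogenic fragments, overlapped between all age groups. Col15a1 measured 35.1, 55.1, 37.8 and 35.1 CPM in young GFP, 44.4, 48.9, 30.5 and 34.5 CPM in old GFP and 32.2, 38.2, 36.3 and 9.84 CPM in oldest-old GFP libraries. Col18a1 measured 8.65, 14.6, 10.6 and 8.94 CPM, then 15.5, 12.5, 10.5 and 9.18 CPM, then 10.4, 11.3, 10.5 and 5.18 CPM. Their log2 fold changes in oldest-old GFP muscle were -0.48 ± 0.33 (adjusted p = 0.368) and -0.19 ± 0.25 (adjusted p = 0.668, edgeR), and oldest-old GFP 4 was the lowest library for each. Without it the values were -0.21 for Col15a1 and -0.0050 for Col18a1.

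Among the fibril-associated collagens, Col12a1 and Col14a1 bind the surface of type I fibrils, and Col22a1 marks the muscle-tendon junction. Col12a1 measured 8.25, 8.78, 5.99 and 6.40 CPM in young GFP, 6.55, 7.35, 4.81 and 5.01 CPM in old GFP and 5.22, 6.12, 5.80 and 2.84 CPM in oldest-old GFP libraries. Col14a1 went the other way in mean, with 7.99, 12.3, 6.89 and 6.69 CPM, then 16.1, 19.3, 9.51 and 12.2 CPM, then 15.1, 8.79, 11.7 and 7.55 CPM. Groups overlapped for both genes, and neither passed the threshold in oldest-old GFP muscle (log2 fold change -0.55 ± 0.26, adjusted p = 0.181 for Col12a1, and 0.36 ± 0.37, adjusted p = 0.562 for Col14a1, edgeR). Col22a1 measured 27.5, 22.6, 24.3 and 29 CPM in young GFP, 17.3, 22.2, 19.9 and 23.9 CPM in old GFP and 17.6, 20.3, 24.1 and 19.7 CPM in oldest-old GFP libraries. Its log2 fold changes were -0.31 ± 0.14 (adjusted p = 0.235) and -0.33 ± 0.14 (adjusted p = 0.119, edgeR). Col9a1, Col16a1, Col19a1 and Col20a1 had log2 fold changes from -0.39 to 0.10 in oldest-old GFP muscle, and 0 of 4 passed.

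Of the transmembrane and short-chain members, Col13a1, Col23a1 and Col25a1 had log2 fold changes of -0.23, 0.38 and 0.14 in oldest-old GFP muscle, and Col8a1 and Col8a2 of 0.55 and -0.38, and 0 of these 5 passed. The unclassed members Col26a1 and Col28a1 stood at -0.66 and 0.53 and did not pass either. Col10a1, the collagen of hypertrophic cartilage, had 0 or 1 reads in every young GFP library, 0 to 31 reads in old GFP and 5 to 60 reads in oldest-old GFP libraries, too few in young muscle for a fold change. Its levels were 0.122, 0.121, 0.131 and 0.917 CPM in oldest-old GFP libraries, against at most 0.0186 CPM in young GFP. It passed the low-count filter only through libraries of the older groups, so its p-value is no support for a rise. Col10a1 is nonetheless counted among the 4 collagens higher at an unadjusted p under 0.05 in oldest-old and the 3 in old GFP muscle (edgeR). Cartilage markers were low throughout, with summed levels of 8 genes between 1.98 and 8.29 CPM, and Sox9, the 1 of them that passed the low-count filter, was higher in oldest-old than young GFP muscle (0.96 ± 0.27, edgeR, adjusted p = 0.0249).

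**Figure D4:**
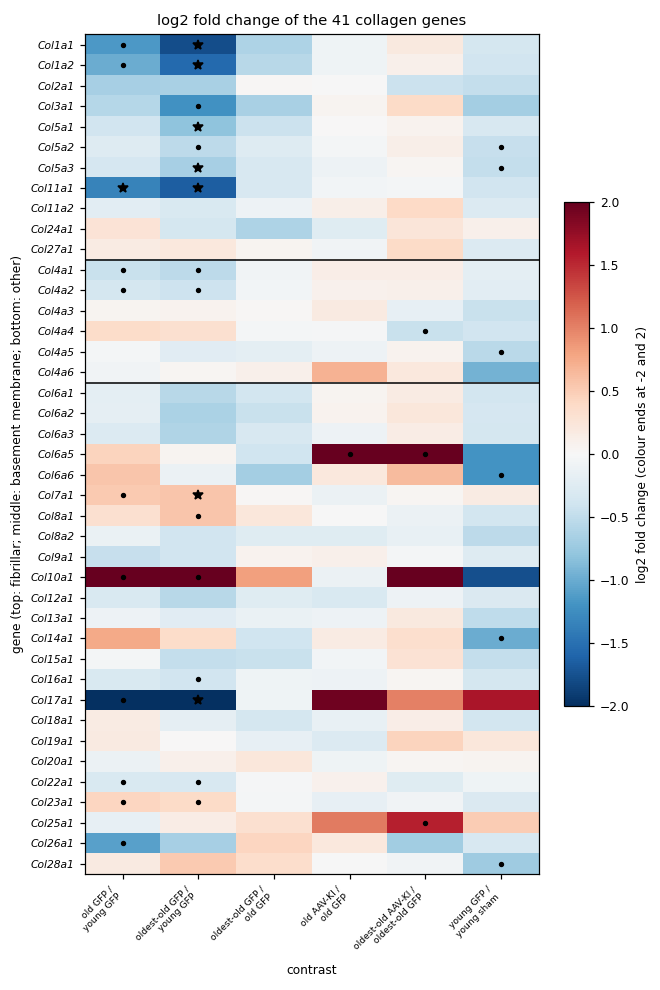
Each cell is the log2 fold change of a collagen gene (rows, fibrillar above the first line, type IV between the lines, other types below) in 1 of 6 contrasts (columns), from blue for lower to red for higher, with the colours ending at -2 and 2. A star marks an adjusted p under 0.05 and a dot an unadjusted p under 0.05, and the stars stand in the columns of old GFP and oldest-old GFP against young GFP muscle, where Col11a1 is starred in both.

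Ratios between chains compare 2 genes within the same library, so that library scaling cancels. These 6 ratios were chosen after the values of their genes were seen, and 36 comparisons were made. The ratio of Col3a1 to Col1a1 reads was 0.537, 0.732, 0.888 and 0.772 in young GFP, 1.17, 0.997, 1.13 and 0.985 in old GFP and 1.12, 1.06, 0.952 and 1.0 in oldest-old GFP libraries. Young GFP libraries lay below both older groups (two-sided exact permutation test, p = 0.0286 in each, the smallest that 4 against 4 allows, adjusted p = 0.129). The ratio of Col1a1 to Col4a1 reads was 1.65, 1.40, 0.967 and 1.04 in young GFP, 0.833, 0.809, 0.611 and 0.865 in old GFP and 0.633, 0.644, 0.568 and 0.198 in oldest-old GFP libraries, again without overlap with young GFP (exact permutation test, p = 0.0286, adjusted p = 0.129). Young sham libraries stood at 0.887, 0.864, 0.778 and 1.05 for Col3a1 to Col1a1, overlapping with both older GFP groups. For Col1a1 to Col4a1 they stood at 1.24, 1.93, 1.35 and 1.05, above every old and oldest-old GFP library.

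Chains of the same molecule were compared likewise. Col1a1 to Col1a2 was 1.07 ± 0.05 in young GFP, 0.968 ± 0.015 in old GFP and 0.904 ± 0.12 in oldest-old GFP libraries. Col4a1 to Col4a2 was 1.36 ± 0.02, 1.28 ± 0.02 and 1.26 ± 0.11 in that order, with the lowest value of 1.11 in oldest-old GFP 4. Young and old GFP libraries did not overlap in either ratio (exact permutation test, p = 0.0286, adjusted p = 0.129), and young and oldest-old GFP libraries overlapped in both (p = 0.0857, adjusted p = 0.257). Col6a1 to Col6a2 was 0.983 ± 0.042 in young GFP and 0.984 ± 0.029 in old GFP libraries, and 1.09 ± 0.16 in oldest-old GFP libraries, where oldest-old GFP 4 stood at 1.33. Col5a1 to Col1a1 was 0.183 ± 0.049, 0.299 ± 0.043 and 0.409 ± 0.20, and young GFP libraries lay below both older groups (exact permutation test, p = 0.0286, adjusted p = 0.129). None of the 36 comparisons passed after adjustment. With 0.0286 as the smallest p of this exact permutation test, any could pass only if most of the 36 reached it. That outcome was thus nearly fixed by the group size.

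**Figure D5:**
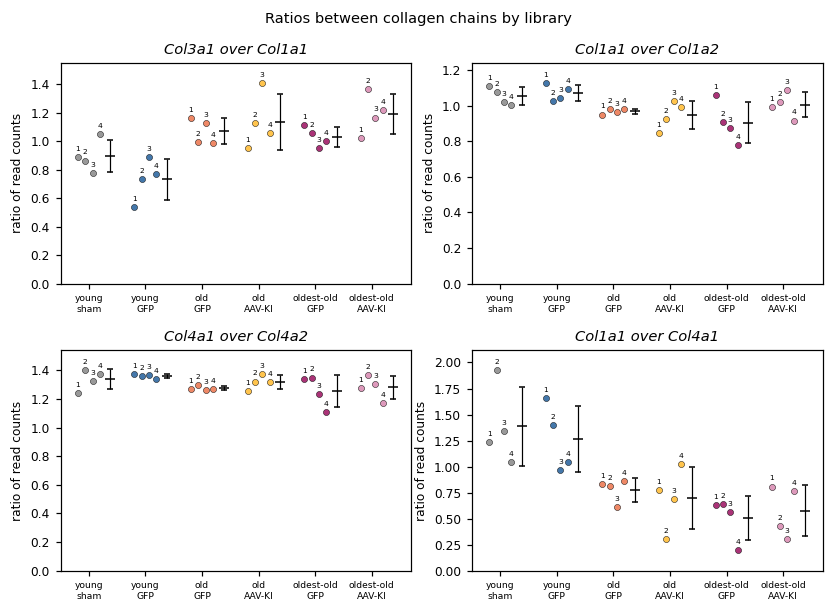
Points give the ratio of read counts of 2 collagen chains in each library, numbered by replicate, for 4 pairs in the 6 groups, with mean and SD (n = 4) beside them and the axis starting at 0. Col3a1 over Col1a1 is 0.537 to 0.888 in young GFP and 0.952 to 1.12 in oldest-old GFP libraries, and Col1a1 over Col4a1 is 0.967 to 1.65 against 0.198 to 0.644.

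The machinery that makes and handles collagen was described from 7 lists. The counts stand beside 5.31% of all genes lower and 7.64% higher in oldest-old GFP muscle, and 1.08% lower and 2.43% higher in old GFP muscle, and counts such as 1 of 11, 1 of 14 or 1 of 18 are near those shares in oldest-old muscle. Among genes of collagen synthesis and folding, 5 of 21 tested were lower and 0 higher in oldest-old GFP against young GFP muscle, and 1 lower and 0 higher in old GFP muscle (edgeR, adjusted p under 0.05). The lowest adjusted p belonged to Plod2, the lysyl hydroxylase for telopeptide cross-links, at 8.59 ± 1.8 CPM in young and 4.44 ± 0.68 CPM in oldest-old GFP libraries (log2 fold change -0.94 ± 0.18, adjusted p = 0.003). P3h1, a prolyl 3-hydroxylase, stood at -0.29 ± 0.08 (adjusted p = 0.025) and Plod1 at -0.23 ± 0.07 (adjusted p = 0.030). Also lower were P4ha2 and Serpinh1, the collagen chaperone HSP47, at -0.24 ± 0.08 (adjusted p = 0.043) and -0.75 ± 0.23 (adjusted p = 0.041). The median log2 fold change of the list was -0.01, against 0.03 for all genes.

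Of the propeptide removal and cross-linking genes 1 of 14 was lower, Adamts2, which cleaves the amino propeptide of fibrillar procollagens, at -0.66 ± 0.15 (edgeR, adjusted p = 0.009) in oldest-old and -0.55 ± 0.15 (adjusted p = 0.049) in old GFP muscle. Of the fibril-binding proteoglycans and glycoproteins 1 of 18 was lower and 1 higher in oldest-old GFP muscle. Sparc, a collagen-binding glycoprotein, fell from 266 ± 47 to 147 ± 16 CPM (-0.84 ± 0.17, adjusted p = 0.005) and was the 1 of 18 lower in old GFP muscle (-0.64 ± 0.17, adjusted p = 0.0457), and Thbs1 rose from 18 ± 2.2 to 38 ± 13 CPM (1.09 ± 0.29, edgeR, adjusted p = 0.020).

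Genes of collagen breakdown and its inhibitors were higher for 2 of 14 and lower for 0 in oldest-old GFP muscle. These were Mmp14, a membrane-bound collagenase, which rose from 7.08 ± 1.1 to 13.9 ± 2.2 CPM (0.99 ± 0.25, adjusted p = 0.015), and Mmp8, the neutrophil collagenase, from 0.033 ± 0.012 to 0.501 ± 0.50 CPM (3.86 ± 0.84, edgeR, adjusted p = 0.007). Mmp8 was barely detected in young GFP libraries, and its SD in oldest-old GFP libraries was as large as its mean, so its fold change is uncertain. Of the collagen receptors 2 of 11 were higher, Ddr1 (0.67 ± 0.11, adjusted p = 0.001) and Cspg4 (0.58 ± 0.17, adjusted p = 0.035), the former a receptor kinase for collagen that was also higher in old GFP muscle (0.43 ± 0.11, edgeR, adjusted p = 0.030). Of the basement membrane partners 1 of 11 was higher, the laminin chain Lamb2 (0.29 ± 0.06, adjusted p = 0.006). Of the TGF-beta axis 2 of 14 were higher, the receptor Tgfbr2 (0.52 ± 0.12, adjusted p = 0.009) and the repressor Tgif1 (0.85 ± 0.24, edgeR, adjusted p = 0.026), and none was lower at that threshold. In old GFP muscle 1 of 14 genes of that axis was lower, the TGF-beta target Ccn2 (-0.77 ± 0.21, edgeR, adjusted p = 0.0496), while 0 of 14 breakdown genes and 0 of 11 basement membrane partners passed. In the other contrasts 0 genes of the 7 lists passed (edgeR).

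The Klotho comparisons asked whether collagens differed between AAV-Kl and GFP mice of the same age. In old mice 0 of 41 collagens passed after adjustment with edgeR (0% of all genes in either direction), 1 was higher and 0 lower at an unadjusted p under 0.05 (1.04% and 0.859% of all genes), and DESeq2 called 0. That unadjusted count was 3 without old AAV-Kl 3 and 0 without old AAV-Kl 4. In oldest-old mice 0 of 41 passed (0.0115% of all genes higher, 0% lower), 2 were higher and 1 lower unadjusted (3.6% and 3.58% of all genes), and DESeq2 called 0. Here the unadjusted count was 0 without oldest-old GFP 3 and 5 without oldest-old AAV-Kl 3. The difference of the Klotho contrast between the ages passed for 0 of 41 collagens by edgeR after adjustment (0% of all genes in either direction) and for 0 at an unadjusted p under 0.05 (2.39% of all genes higher and 2.73% lower, with 0 to 3 collagens over the fits that left out 1 library each), and DESeq2 called 0. Median log2 fold changes over the 41 collagens were -0.03 in old and 0.12 in oldest-old mice. With 1 library left out the median ran in old mice from -0.11 (without old AAV-Kl 3) to 0.07 (without old GFP 2), and it was also above 0 without old AAV-Kl 1 (0.04) and 2 (0.05). In oldest-old mice it ran from -0.02 (without oldest-old GFP 4) to 0.22 (without oldest-old GFP 2), so the sign depended on single libraries at both ages.

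Col1a1 stood at 67.7, 43.5, 123 and 109 CPM in old AAV-Kl and at 89.8, 74.4, 31.4 and 76.7 CPM in oldest-old AAV-Kl libraries. Col1a2 stood at 79.9, 47.0, 120 and 109 CPM and at 90.5, 72.8, 28.9 and 83.7 CPM. Col3a1 stood at 64.4, 49.0, 173 and 115 CPM and at 91.9, 102, 36.7 and 93.4 CPM. All 3 overlapped with the GFP libraries of the same age, with old AAV-Kl 2 lowest in the old group and number 3 lowest in the oldest-old AAV-Kl group. The log2 fold change of Col1a1 was -0.09 ± 0.40 in old and 0.20 ± 0.40 in oldest-old mice (edgeR, adjusted p = 0.9997 and 0.920).

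For the type V chains oldest-old AAV-Kl 3 was again the lowest of its group. Col5a1 measured 24.6, 20.9, 33.3 and 28.2 CPM in old AAV-Kl and 23.4, 24.3, 10.8 and 25.1 CPM in oldest-old AAV-Kl libraries. Col5a2 measured 14.2, 14.9, 23.4 and 20.3 CPM and 20.4, 19.9, 10.2 and 17.8 CPM. Both overlapped with the GFP libraries, and Col5a1 had log2 fold changes of 0.002 ± 0.22 and 0.06 ± 0.22. Col11a1, lower in both older GFP groups than in young GFP muscle, measured 1.12, 0.835, 1.43 and 1.14 CPM and 1.13, 0.959, 0.701 and 0.862 CPM, so that all 8 AAV-Kl libraries lay below the lowest young GFP library (2.51 CPM).

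Col4a1 and Col4a2 varied between the AAV-Kl libraries by more than between GFP libraries of the same age. Col4a1 measured 87.2, 142, 178 and 106 CPM in old AAV-Kl and 111, 173, 102 and 99.9 CPM in oldest-old AAV-Kl libraries. Col4a2 measured 69.4, 107, 129 and 80.6 CPM and 86.9, 127, 78.2 and 85.2 CPM. Groups overlapped, and the log2 fold change of Col4a1 was 0.14 ± 0.19 in old and 0.13 ± 0.19 in oldest-old mice. Summed adipocyte markers were 1703 CPM in old AAV-Kl 2 (305 to 359 CPM in the rest of its group) and 1557 CPM in oldest-old AAV-Kl 2 (230 to 244 CPM). Summed macrophage markers were 266 CPM (124 to 189 CPM in the rest) and 300.1 CPM (59.4 to 127 CPM) in the same libraries. Old AAV-Kl 3, the highest of its group for Col4a1 and Col4a2, held 354 CPM of adipocyte and 189 CPM of macrophage markers. The part of either marker set in the type IV levels was not tested.

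Col6a1 measured 49.2, 40.6, 75.6 and 71.3 CPM in old AAV-Kl and 52.8, 52.5, 21.3 and 70.6 CPM in oldest-old AAV-Kl libraries. Col6a2 measured 49.3, 37.9, 77.6 and 76.9 CPM and 53.1, 55.1, 19.6 and 72.2 CPM. Col6a3 measured 33.5, 27, 43.0 and 39.6 CPM and 36.7, 39.3, 15.8 and 43.8 CPM. Oldest-old AAV-Kl 3 was again lowest for the 3 chains, and Col6a1 had log2 fold changes of 0.06 ± 0.33 and 0.16 ± 0.33. Col15a1 measured 26.9, 30.2, 57.6 and 37.0 CPM and 38.5, 43.6, 21.4 and 40.0 CPM. Col18a1 measured 9.11, 12.5, 11.6 and 9.92 CPM and 9.19, 13.7, 6.46 and 11.7 CPM. Both multiplexins overlapped with the GFP libraries of the same age.

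Of the fibril-associated chains, Col12a1 measured 4.76, 3.36, 5.07 and 6.11 CPM in old AAV-Kl and 6.70, 4.98, 2.56 and 4.52 CPM in oldest-old AAV-Kl libraries. Col14a1 measured 12.1, 13.7, 25.5 and 12.5 CPM and 18.2, 11.7, 4.77 and 20.1 CPM. Col22a1 measured 21.2, 17.8, 22 and 27.5 CPM and 18.7, 16.4, 14.5 and 20.1 CPM. Each overlapped with the GFP libraries. In oldest-old AAV-Kl 3, the summed levels of tenocyte and fibro-adipogenic progenitor markers were 78.2 and 470 CPM, the lowest of all 24 libraries, and their part in its low collagen levels was not tested.

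Col6a5, a chain of type VI with low levels in muscle, was higher at an unadjusted p under 0.05 with Klotho at both ages and did not pass after adjustment. It measured 0.279, 0.795, 2.78 and 8.76 CPM in old AAV-Kl and 0.508, 0.744, 0.0757 and 6.31 CPM in oldest-old AAV-Kl libraries. Old AAV-Kl 3 and 4 and oldest-old AAV-Kl 4 stood above every other library, the next being young sham 2 at 0.970 CPM, and the remaining AAV-Kl libraries lay near or within the GFP range. The log2 fold changes were 2.84 ± 1.1 in old (adjusted p = 0.9997) and 2.5 ± 1.1 in oldest-old mice (adjusted p = 0.670, edgeR). Col25a1, a transmembrane collagen of nerve and muscle contacts, measured 0.293, 0.248, 1.84 and 0.235 CPM in oldest-old AAV-Kl and 0.192 to 0.242 CPM in oldest-old GFP libraries. Its log2 fold change of 1.55 ± 0.67 (edgeR, adjusted p = 0.665) came with 1 library, oldest-old AAV-Kl 3, far above the others. Col4a4 stood at -0.45 ± 0.18 in oldest-old mice (edgeR, adjusted p = 0.657).

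The comparison of young GFP with young sham mice sets vector-treated against sham mice of the same age. After adjustment 0 of 41 collagens passed with edgeR (0.281% of 17803 genes higher and 0.191% lower), 0 were higher and 6 lower at an unadjusted p under 0.05 (4.8% and 8.62% of all genes), and DESeq2 called 0. Of all genes at that unadjusted threshold 35.8% were higher with TMM scaling and 47.1% with DESeq2 size factors. The median log2 fold change of the 41 collagens was -0.36 and that of all genes -0.03. Without young sham 2 the unadjusted count was 0 and the median -0.15, and it was 2, 3 and 2 without young GFP 1, 3 and 4.

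Col1a1 stood at 167, 421, 220 and 214 CPM in young sham libraries. Col1a2 stood at 150, 391, 215 and 213 CPM and Col3a1 at 148, 364, 171 and 225 CPM. Young sham 2 was the highest in each, and the groups overlapped. Col5a1 measured 31.0, 60.6, 34.6 and 46.7 CPM and Col5a2 22.1, 41.6, 26.9 and 31.9 CPM. Col11a1 measured 2.93, 5.50, 3.70 and 3.20 CPM, with all but young sham 2 inside the young GFP range. Col4a1 measured 135, 219, 164 and 204 CPM and Col4a2 108, 156, 124 and 148 CPM, on both sides of the young GFP range.

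Col6a1 measured 60.6, 118, 70.1 and 80.7 CPM in young sham libraries. Col6a2 measured 56.0, 123, 68.0 and 82.0 CPM and Col6a3 41.6, 82.8, 49.0 and 61.8 CPM. All 3 overlapped with young GFP. Col15a1 measured 37.5, 77.1, 50.8 and 58.7 CPM and Col18a1 9.76, 19, 12.3 and 13.6 CPM. Col12a1 measured 5.34, 11.1, 9.33 and 9.57 CPM, Col22a1 29, 27, 29.4 and 23.2 CPM and Col7a1 12.7, 9.32, 9.68 and 10.3 CPM, again with overlap. Col14a1 measured 14.6, 27.2, 13.2 and 11.3 CPM, with only young sham 4 inside the young GFP range (6.69 to 12.3 CPM), and had the lowest unadjusted p but for Col4a5. The 6 genes at an unadjusted p under 0.05 were Col14a1 (log2 fold change -0.99 ± 0.38), Col4a5 (-0.54 ± 0.19), Col5a2 (-0.47 ± 0.22), Col5a3 (-0.48 ± 0.22), Col6a6 (-1.20 ± 0.54) and Col28a1 (-0.72 ± 0.33), with adjusted p from 0.217 to 0.361 (edgeR).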

How the data were processed

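RNA from gastrocnemius muscle was sequenced in 24 libraries. The authors aligned reads with STAR to mm10 and deposited raw, unnormalized read counts per gene for each library, and the annotation release is not given in the sources used here. The unstranded counts were used, because the first strand column held 49.8% to 50.4% of stranded reads. Gene names and lengths came from GENCODE M21 (55144 of 55385 identifiers matched without version). Tests used edgeR 4.0.16 (quasi-likelihood test, TMM, filterByExpr, Benjamini-Hochberg adjustment, threshold 0.05) in R 4.3.3, fitted to 20 libraries of 5 groups, or to all 24 for young GFP against young sham, and tested on simulated data. All 41 members passed the low-count filter in both fits. DESeq2 1.42.0 was an alternative. Exact permutation tests used scipy 1.17.1. The p-values measure the spread between libraries. The study's methods give 4 animals for each of 5 groups, and the origin of the young sham libraries is not described further. The members and gene lists were chosen with earlier results of these data known. Per-library values were given for 15 chains and, in each contrast, for the members with the 3 largest rises and falls past the threshold, and from each gene list up to 3 genes of lowest adjusted p in oldest-old against young GFP muscle. Col5a3, Col10a1, Col6a5, Col25a1, Col4a4, Serpinh1, P4ha2 and the genes listed for the sham comparison were named after their values were seen. Alternatives were another normalization, another test, no filter, other sets of libraries, covariates and a replicate block.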

Additional observations from a re-analysis of the deposited data

Results flagged for a closer look

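In 138 groups of 4 values, 17 had a highest or lowest library farther from its nearest neighbour than Dixon's 95% critical value allows. For independent, normally distributed values chance gives about 1 in 20 groups. These groups share libraries and include sums of the same chains, so their count cannot be set against that rate. Oldest-old AAV-Kl 3 was low in Col3a1 (36.7 CPM), Col5a1 (10.8 CPM) and the summed fibrillar chains (147 CPM). Oldest-old GFP 4 was low in Col4a1 (85.8 CPM), Col18a1 (5.18 CPM) and the summed type IV chains (169 CPM). Old GFP 2 was high in Col4a1 (139 CPM), Col4a2 (107 CPM) and the summed type IV chains (252 CPM), and oldest-old AAV-Kl 2 in Col4a1 (173 CPM) and the summed type IV chains (305 CPM). Young GFP 2 was high in Col6a2 (80.7 CPM) and Col15a1 (55.1 CPM), and old AAV-Kl 3 in Col14a1 (25.5 CPM). Col17a1 was high in old AAV-Kl 2 (5.45 CPM), oldest-old GFP 3 (0.588 CPM) and oldest-old AAV-Kl 4 (1.98 CPM).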

How the results depend on the processing

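In old against young GFP muscle 1 collagen was called, and 2 were with all 24 libraries in the fit, 4 with DESeq2's test, 4 with the tenocyte score as a covariate and 10 with only the groups of the contrast. All genes called in those fits, in that order, were 613 of 17465, 837 of 17803, 1082 of 17465, 1072 of 17465 and 1275 of 15960. In oldest-old against young GFP muscle 7 were called, 11 with DESeq2's test, 1 without young GFP 1 and 3, and 1 without those and oldest-old GFP 4, an alternative chosen after seeing the data. All genes called in these fits, in that order, were 2263 of 17465, 2899 of 17465, 623 of 18269 and 564 of 18183. The cause of these shifts was not tested. Leaving out 1 library at a time gave 1 to 1 calls in old and 3 to 6 in oldest-old muscle, lowest without oldest-old GFP 4, and 0 to 0 in the other contrasts. All genes called then ran from 271 to 532 in old and from 1366 to 2399 in oldest-old muscle. With the tenocyte score the sign turned in old muscle for Col6a1 (0.091), Col6a2 (0.13) and Col15a1 (0.20), and in oldest-old muscle for Col18a1 (0.051). Col17a1 turned without young GFP 1 and 3, to 0.53 in old and 0.45 in oldest-old muscle, and to 0.57 with oldest-old GFP 4 also out. With 1 library left out, Col15a1 ran from -0.17 to 0.12 and Col18a1 from -0.0032 to 0.34 in old muscle. Over the named genes and alternatives, 616 values kept direction and side of the threshold, 37 lost the call, 20 gained it and 11 turned. The replicate block gave 1 call in old and 6 in oldest-old muscle, beside 513 and 2035 of 17465 genes, and 0 collagens in every other contrast. Deviations of same-numbered libraries had correlations from -0.54 to 0.15, and those of differently numbered libraries from -0.67 to 0.56. The check thus showed no pairing by number, and a shared origin of same-numbered libraries was not tested. Genes with few reads, such as Col10a1, are limited by depth and by 4 libraries per group. The Col17a1 difference rested on young GFP 1 and 3.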
